A study of Rattus norvegicus with 4 samples.

Results

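The genes described here are 7 Toll-like receptors, Tlr2, Tlr3, Tlr4, Tlr5, Tlr6, Tlr7 and Tlr9, with the co-receptor genes Cd14 and Ly96 and the adaptor gene Myd88. They were chosen by name, as array probes whose RefSeq accession belongs to one of these rat symbols. All 10 genes had a probe, 13 probes in total, out of 16581 named genes with 21109 probes. Signal well above background on all 4 arrays was found for 6 of the 10 genes (60.0%), against 52.4% of all named genes. It was found for 9 of the 13 probes, against 51.2% of named probes. On at least 1 array it was found for 7 genes, against 58.4% of named genes. The members were thus detected at about the rate of other genes.

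The RNA came from NR8383 cells, a macrophage line started from rat lung lavage and grown partly adherent and partly floating. All 4 cultures belonged to 1 group, exposed for 4 h to the pristine single-walled carbon nanotube NRCWE055 at 11 cm2 of nanotube per cm2 of culture, in cells described as being at 20 passages. By the study design the cultures are biological replicates, and the design also has unexposed cultures, which are not analysed here. The values therefore describe exposed cells and cannot show what exposure changed. For replicates 2, 3 and 4 the nanotube number in the source name differs from that in the title, and samples were grouped by title.

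Toll-like receptors recognise conserved molecules of microbes and molecules released by damaged cells. On the cell surface, TLR2 pairs with TLR1 or TLR6 to bind lipopeptides, TLR4 binds lipopolysaccharide held by MD-2, the product of Ly96, after transfer from CD14, and TLR5 binds bacterial flagellin. TLR3, TLR7 and TLR9 sit in endosomes and bind double-stranded RNA, single-stranded RNA and unmethylated CpG DNA. All of these receptors except TLR3 signal through the adaptor MyD88 to NF-kB and MAP kinases, whereas TLR3 uses TRIF, which TLR4 also uses. In macrophages these receptors drive the early cytokine response.

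Levels are given as log2 of the processed signal relative to the 75th percentile of each array, as mean ± SD over the 4 arrays (n = 4). A level depends on the affinity of its probe, so levels of different probes were not compared. Detection on an array means that the majority of a probe's spots bore the scanner software's flag for signal well above background. The 75th percentile signals of replicates 1 to 4 were 1756, 2631, 2861 and 1873, so replicates 1 and 4 were dimmer before scaling. Of 14 measured macrophage and alveolar macrophage markers, 10 were detected on all arrays, and Adgre1, Marco, Msr1 and Car4 were detected on none. With 4 arrays, the precision of each mean is limited by their number.

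**Figure D1:**
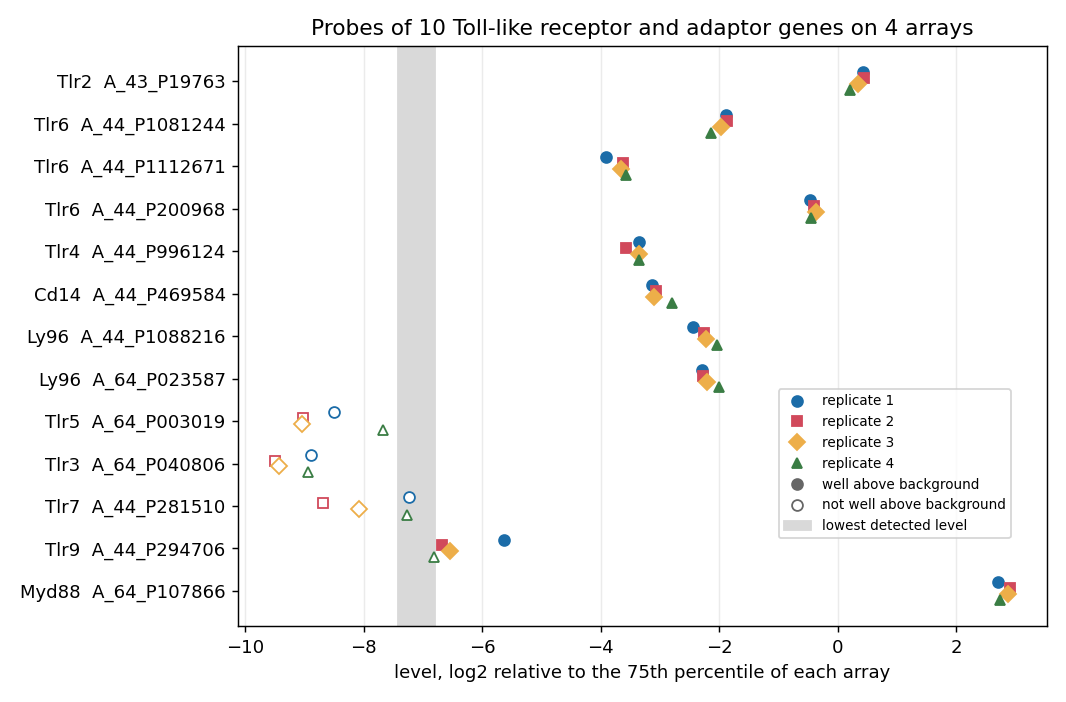
Level of each of the 13 probes on each array (x axis, log2 relative to the 75th percentile of the array). Points are single arrays, filled where the probe was well above background, and the grey band spans the lowest detected level of the 4 arrays; the probes of Tlr2, Tlr6, Tlr4, Cd14, Ly96 and Myd88 were detected on all arrays, Tlr9 on 3, and Tlr5, Tlr3 and Tlr7 on none.

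The lipopeptide receptor genes among the members, Tlr2 and Tlr6, were both detected in every culture. Tlr2, which encodes the shared subunit of the lipopeptide receptors, had a processed signal of 2359 on replicate 1, 3588 on replicate 2, 3646 on replicate 3 and 2167 on replicate 4, by probe A_43_P19763 for NM_198769. After scaling, its levels were 0.43, 0.45, 0.35 and 0.21 on replicates 1 to 4, with a mean of 0.36 ± 0.11. Replicate 4 was the lowest and replicate 2 the highest, and the whole span was 1.18-fold. The raw spot was between 44.3 and 76.6 times as bright as its local background.

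Tlr6, the partner of TLR2 for diacylated lipopeptides, was read by 3 probes, all detected on all 4 arrays. The gene level was -2.09 on replicate 1, -1.96 on replicate 2, -1.998 on replicate 3 and -2.05 on replicate 4, a mean of -2.03 ± 0.055. This SD was lower than the median SD of all detected genes, 0.0926. The gene level is an average over probes whose own levels lay far apart and whose SDs were not alike. Probe A_44_P200968 averaged -0.42 ± 0.05, A_44_P1081244 -1.97 ± 0.12, and A_44_P1112671, designed on the predicted transcript XM_006250960, -3.69 ± 0.15. The brightest and dimmest probes were 3.27 apart, or 9.63-fold, so the mean level of Tlr6 is a property of the probes chosen.

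The Tlr6 probes also ordered the arrays differently. Probe A_44_P1112671 was lowest on replicate 1 (-3.91 against -3.65 to -3.58 on the others), while A_44_P1081244 was lowest on replicate 4 (-2.13 against -1.98 to -1.88). The difference between these probes was 2.02 on replicate 1 and 1.45 on replicate 4. Tlr1, which encodes the other partner of TLR2 and lies beside Tlr6 in the rat annotation, was detected on none of the 4 arrays. Tlr1 and Tlr6 are close paralogs, and whether a probe for one also binds RNA of the other was not tested.

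All genes of the lipopolysaccharide receptor complex were detected in every culture. Tlr4, the signalling receptor, had levels of -3.35 on replicate 1, -3.58 on replicate 2, -3.36 on replicate 3 and -3.36 on replicate 4, a mean of -3.41 ± 0.11, by probe A_44_P996124 for NM_019178. Replicate 2 stood below the other 3 arrays, which lay close together. Its raw spot was 6.29 to 8.54 times its local background, and processed signals were 171.6, 220.6, 279.1 and 182.7 on replicates 1 to 4. Replicate 2 was the lowest array for Tlr4 under all 10 processing settings that kept the 4 arrays. These count the main setting, and several of them cannot change a gene with 1 probe.

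Cd14, the co-receptor that passes lipopolysaccharide to the complex, had levels of -3.14 on replicate 1, -3.07 on replicate 2, -3.10 on replicate 3 and -2.80 on replicate 4, a mean of -3.03 ± 0.16, by probe A_44_P469584 for NM_021744. The first 3 arrays were close together and replicate 4 was higher. Ly96, which encodes MD-2, the subunit of the complex that holds the lipid, had levels of -2.36 on replicate 1, -2.27 on replicate 2, -2.21 on replicate 3 and -2.02 on replicate 4, a mean of -2.22 ± 0.14. Its 2 probes were designed on the same transcript, NM_001024279, and lay 0.05 apart on average, unlike the probes of Tlr6. Both Ly96 probes were highest on replicate 4, at -2.04 and -1.997, as the Cd14 probe was.

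Myd88, the adaptor shared by most of the receptors, had processed signals of 11499 on replicate 1, 19677 on replicate 2, 20954 on replicate 3 and 12539 on replicate 4, by probe A_64_P107866 for NM_198130. Scaling took away most of that difference. The levels were 2.71, 2.90, 2.87 and 2.74 on replicates 1 to 4, a mean of 2.81 ± 0.09, a span of 1.14-fold. The dimmer arrays, replicates 1 and 4, were slightly below the brighter replicates 2 and 3 for this gene. With normexp background correction this order was lost, with levels of 2.72, 2.79, 2.71 and 2.59 on replicates 1 to 4. The raw spot was 323 to 529 times its local background and was not saturated on any array.

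The endosomal receptor genes and the flagellin receptor gene were at or near background. Tlr9, the receptor for CpG DNA, had processed signals of 35.4 on replicate 1, 25.6 on replicate 2, 30.6 on replicate 3 and 16.7 on replicate 4. It was detected on replicates 1, 2 and 3, and its replicate 4 spot lay where only part of the spots pass: on that array 30.3% of the 1353 spots with a signal from 15 to 20 were well above background. The scanner software's own error estimate for Tlr9 was between 15.3% and 26.1% of its signal. Its level spanned 1.18 on the log2 scale between arrays, from -6.81 on replicate 4 to -5.63 on replicate 1.

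Tlr7, the receptor for single-stranded RNA, was not well above background on any array. Its processed signals were 11.6 on replicate 1, 6.40 on replicate 2, 10.6 on replicate 3 and 12.1 on replicate 4, a range in which 0% of the spots of any array were well above background. Of the 308 negative control spots of each array, which carry no rat sequence, 4, 7, 4 and 3 were at or above it on replicates 1 to 4. The signal was therefore in the upper tail of the negative controls. A looser flag, which asks only for signal above background by a significance test, was set for Tlr7 on all 4 arrays.

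Tlr5, the flagellin receptor gene, was also not well above background on any array, with processed signals of 4.85, 5.09, 5.44 and 9.18 on replicates 1 to 4. Between 5 and 16 of the 308 negative controls were at or above it, and the looser flag was set on 3 arrays. On replicate 2 the error estimate for Tlr5 was 100.3% of the signal. Tlr3, the receptor for double-stranded RNA, had processed signals of 3.72, 3.65, 4.16 and 3.83 on replicates 1 to 4. Of the 308 negative controls, 180, 151, 153 and 134 were at or above it on replicates 1 to 4, so it lay near their median on every array, and the looser flag was set on none. The error estimate for Tlr3 was as large as the signal, 100.3% to 100.4%. Whether values with such an error are measured or a floor set by the software was not tested. The ranks of such values among the negative controls are therefore not separate evidence beside the flags. For Tlr3 the arrays give only an upper bound on the signal. Tlr7, with the looser flag on all 4 arrays, and Tlr5, with it on 3, had at most a weak signal above background. In RNA from whole cultures, few cells with the transcript and little transcript per cell cannot be told apart for any of these 3 genes.

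**Figure D2:**
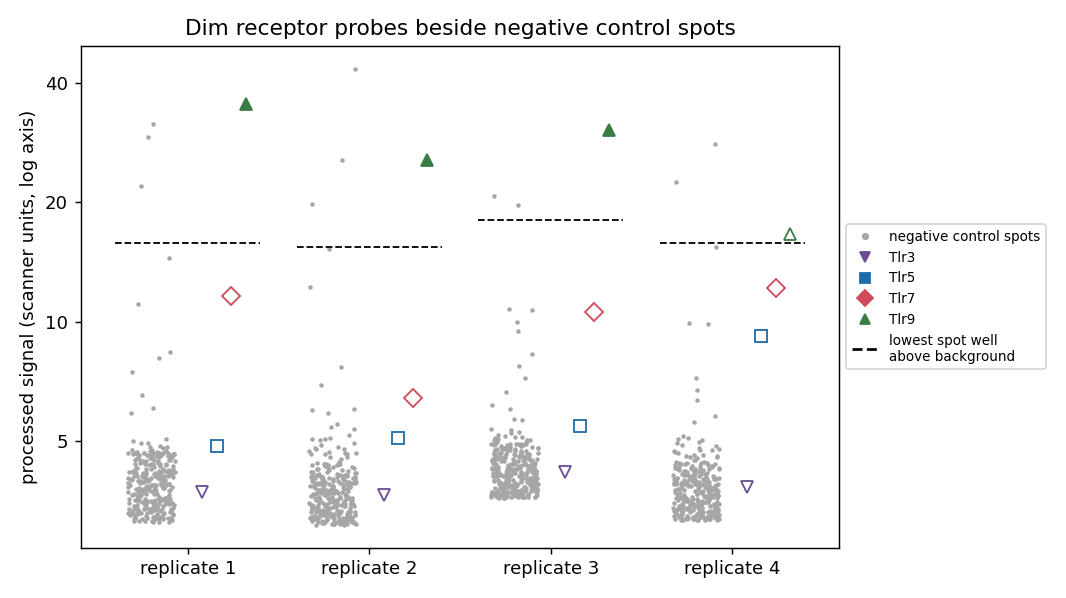
Processed signal (y axis, scanner units, log axis) of the Tlr3, Tlr5, Tlr7 and Tlr9 probes on each array beside the 308 negative control spots of that array (grey). Filled symbols were well above background and open symbols were not; dashed lines mark the dimmest spot of each array that was well above background, at 15.8, 15.4, 18.1 and 15.8 on replicates 1 to 4, and only Tlr9 was filled, on 3 arrays.

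The detected members differed little between cultures. Their SDs were between 0.055 and 0.156, with a median of 0.109 against 0.0926 over the 8685 detected genes, and 5 of 6 were above that median, where 50.0% of all detected genes are. No detected member spanned over 2-fold, against 1.11% of all detected genes. The scanner software's error estimate for their 9 probes was 10.0% to 10.4% of the signal, which at the median is 0.14 on the log2 scale. Every member probe was printed once per array, so spot noise could not be separated from differences between cultures. No member could enter the test over replicate spots given below. Dixon's gap ratio, given under the flagged results, asks only whether 1 array stands apart and cannot make that separation either.

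**Figure D3:**
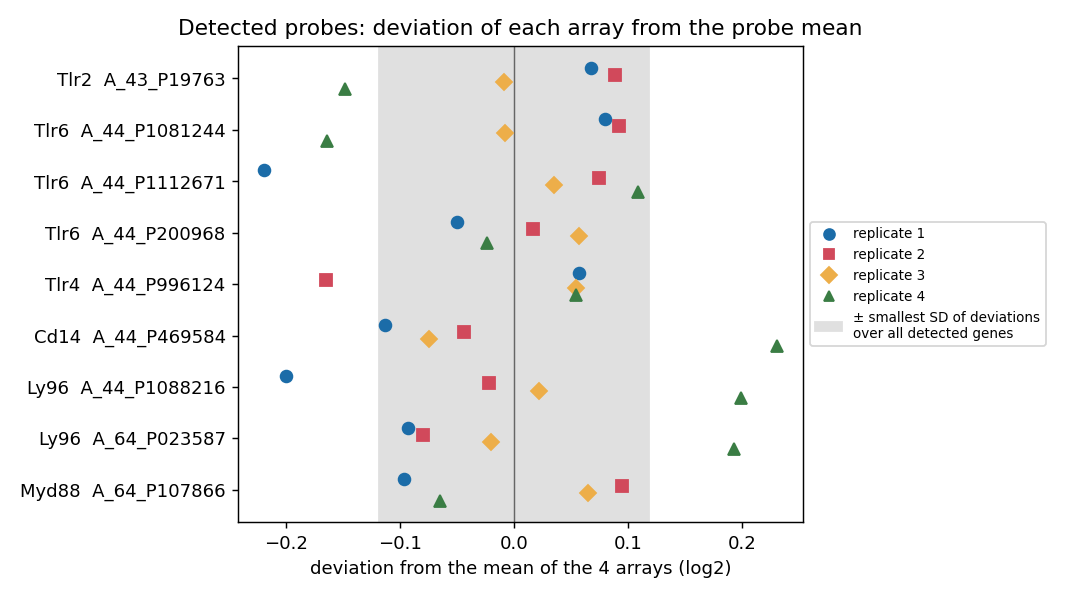
Deviation of each array from the mean of the 4 arrays (x axis, log2) for the 9 detected member probes. Points are single arrays, and the grey band is ± 0.12, the smallest of the 4 arrays' SDs of deviations over all detected genes; Cd14 and both Ly96 probes were highest on replicate 4, at 0.23, 0.20 and 0.19, and Tlr2 was lowest there, at -0.15.

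Replicate 4 carried the highest values of the co-receptors and the lowest of Tlr2. Cd14 deviated there by 0.23 from its own mean, and 5.34% of all detected genes lay as far or farther above their mean on that array. Ly96 deviated by 0.20, and 7.74% of all detected genes lay as far. Tlr2 deviated by -0.15, with 7.40% of all detected genes as far below. Tlr4 itself was at 0.05 on that array, so the receptor and its co-receptors did not have the same order of arrays. Cd14 and Ly96 were highest on replicate 4, and Tlr2 lowest, in 10 of 10 processing settings that kept the 4 arrays. The main setting is among the 10. The dim-probe filter, the number of arrays needed for detection and the probe choice could not change Cd14 or Tlr2, with 1 probe each. By Dixon's gap ratio, given under the flagged results, replicate 4 did not pass the critical value for Cd14, Ly96 or Tlr2. These deviations are of 1 array in 1 culture.

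The genome sequence upstream of some members is shown to let the letters known for myeloid promoters be seen beside the detection of the gene. The RefSeq promoter table of build GRCr8 held 9 of the 10 members, Ly96 being named only. In the 250 bases before the annotated start, both strands were searched for GAGGAA (the core bound by the myeloid factor PU.1, the product of Spi1), an NF-kB type motif (GGG, any 5 bases, CC), an interferon response type motif (GAAA, any pair of bases, GAAA), the GC box GGGCGG and the TATA box TATAAA. The windows of Tlr4, Tlr6 and Myd88, which were detected, and of Tlr3, which was not, are written on the strand of the gene, with matches in capitals.
Tlr4, chr5:85160997-85161246, + strand: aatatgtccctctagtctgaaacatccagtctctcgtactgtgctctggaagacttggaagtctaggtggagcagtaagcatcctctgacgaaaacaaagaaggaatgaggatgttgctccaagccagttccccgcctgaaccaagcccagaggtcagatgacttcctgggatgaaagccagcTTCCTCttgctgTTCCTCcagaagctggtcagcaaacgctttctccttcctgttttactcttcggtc
Tlr6, chr14:43715559-43715808, + strand: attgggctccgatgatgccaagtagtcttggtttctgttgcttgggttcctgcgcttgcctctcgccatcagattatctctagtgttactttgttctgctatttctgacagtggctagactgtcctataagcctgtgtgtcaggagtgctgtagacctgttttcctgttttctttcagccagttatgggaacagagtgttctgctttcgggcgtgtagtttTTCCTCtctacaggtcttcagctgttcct
Myd88, chr8:127956231-127956480, - strand: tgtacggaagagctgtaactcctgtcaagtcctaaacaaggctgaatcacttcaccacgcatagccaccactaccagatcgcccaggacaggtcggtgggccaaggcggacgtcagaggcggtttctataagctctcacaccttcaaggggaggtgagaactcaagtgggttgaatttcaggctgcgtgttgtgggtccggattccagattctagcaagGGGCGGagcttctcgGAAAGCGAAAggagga
Tlr3, chr16:53554666-53554915, + strand: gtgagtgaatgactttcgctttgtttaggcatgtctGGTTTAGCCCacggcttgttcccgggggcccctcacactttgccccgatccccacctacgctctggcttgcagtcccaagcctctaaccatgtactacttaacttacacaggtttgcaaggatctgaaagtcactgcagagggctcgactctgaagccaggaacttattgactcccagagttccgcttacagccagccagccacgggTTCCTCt

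GAGGAA, read here on the other strand as TTCCTC, was found in the windows of 6 of 9 members: Tlr3, Tlr4, Tlr6, Tlr7, Tlr9 and Cd14. It was in 3 of the 5 detected members and in 3 of the other 4, against 23.3% of all 33469 windows in the table. Of those other 4, Tlr9 was detected on 3 arrays, and the shares were not tested against each other. Tlr4 held them at 2 places, starting 67 and 55 bases before the start. The NF-kB type motif was found in Tlr2 and Tlr3 (42.3% of all windows), GGGCGG in Tlr2 and Myd88 (30.5%), the interferon response type motif in Myd88 alone (3.41%), and TATAAA in no member (12.9%). No marked stretches overlapped in the 4 windows shown. A match describes letters in the window, and no binding was measured.

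Most other measured genes of the pathway were detected, while the further Toll-like receptors mostly were not. Over the 6 related lists, 57 of 70 measured genes (81.4%) were detected on all 4 arrays, against 52.4% of all named genes. Among the further Toll-like receptors only 1 of 5 was. That gene was Tlr12, whose product binds parasite profilin in the mouse, at -5.47 ± 0.08. Tlr8, a receptor for single-stranded RNA and a neighbour of Tlr7 in the rat annotation, was detected on replicates 2, 3 and 4, and Tlr1, Tlr10 and Tlr11 on none.

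**Figure D4:**
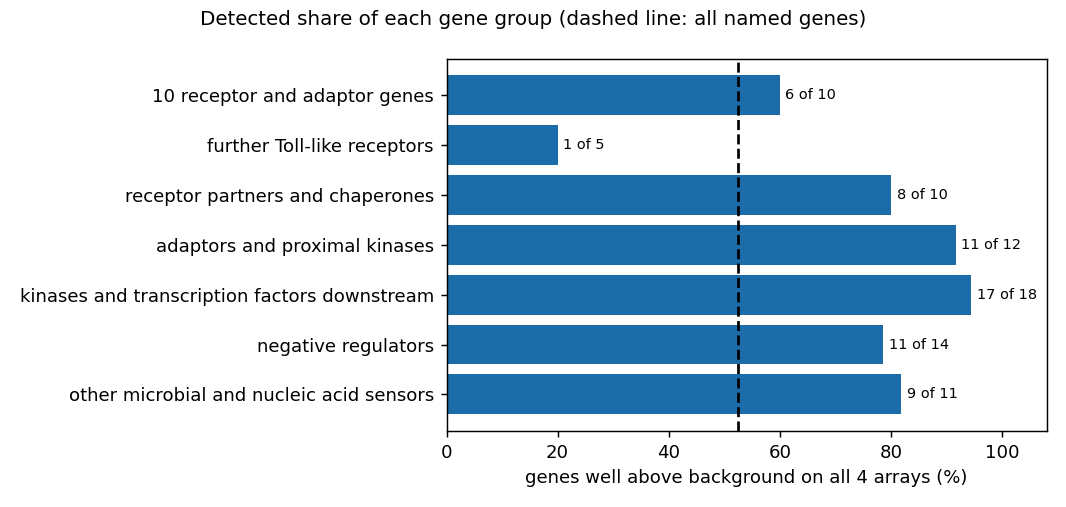
Share of the measured genes of each group that were well above background on all 4 arrays (x axis, %), with counts beside the bars. The dashed line is the share of all named genes, 52.4%; the further Toll-like receptors, at 1 of 5, lay below it and the other 6 groups above it.

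Receptor partners and chaperones were detected for 8 of 10 measured genes. Cnpy3, which encodes a chaperone needed for the folding of several Toll-like receptors, was at 2.61 ± 0.04, and Hsp90b1, the chaperone gp96 that works with it, at -0.27 ± 0.16. Ly86, which encodes MD-1, a relative of MD-2, was at -1.99 ± 0.07, while Cd180, the receptor that pairs with MD-1, was detected on none. Lbp, the serum protein that carries lipopolysaccharide to CD14 and is made chiefly by the liver, was also not well above background. The co-receptor gene Cd36 was at -0.96 ± 0.09, its 2 probes 5.08 apart, and Slc15a4, an endolysosomal transporter needed for signalling by endosomal receptors, was at -0.11 ± 0.08.

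Adaptors and proximal kinases were detected for 11 of 12 measured genes. Ticam2, which encodes TRAM, the adaptor that links TLR4 to TRIF, was at -1.98 ± 0.07, and Sarm1, the remaining adaptor gene with a probe, was not well above background. No probe was matched to Tirap or Ticam1. Among the kinases of the MyD88 complex, Irak1 was at -1.79 ± 0.05, its 2 probes 1.21 apart, and Irak2 at -2.40 ± 0.09. Irak4, the first kinase recruited by MyD88, was at -6.38 on replicate 1, -6.20 on replicate 2, -6.14 on replicate 3 and -4.81 on replicate 4, so that 1 array stood well above the others. Its probe was dim, and the lowest detected level of any spot on replicate 1 was -6.80. The ubiquitin ligase gene Traf6 was at -4.28 ± 0.09. Map3k7, which encodes the kinase TAK1, was at -3.79 ± 0.12, its 2 probes 1.81 apart.

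Kinases and transcription factors further downstream were detected for 17 of 18 measured genes. The IkB kinase genes Chuk, Ikbkb and Ikbkg were at -2.58 ± 0.20, -1.39 ± 0.05 and -0.41 ± 0.11. Chuk and Ikbkg each had 2 probes, of which only 1 was detected on all arrays and gives the level. The NF-kB subunit genes Rela and Nfkb1 were at 0.14 ± 0.05 and -2.92 ± 0.05, the 2 Nfkb1 probes 3.36 apart. Tbk1, the kinase that activates IRF3 after TRIF, was detected on 3 arrays, and the related kinase gene Ikbke was at -0.78 ± 0.06. Irf5, an interferon regulatory factor that acts with MyD88, was at 1.68 ± 0.06. The p38 kinase gene Mapk14 was at 2.53 ± 0.06. Map2k7, a kinase upstream of JNK, had the largest SD of the group, 0.45, at a level of -5.95. It was dim, at -6.52 on replicate 4, where the lowest detected level was -6.89.

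Negative regulators of the receptors were detected for 11 of 14 measured genes. Irak3, a kinase family member that restrains the MyD88 complex in macrophages, was at 0.48 ± 0.10, and Tollip, which binds IRAK1, at 0.37 ± 0.05. Ptpn6, the phosphatase SHP-1, was at 5.14 ± 0.03. Sigirr, an inhibitory relative of the interleukin-1 receptor, Il1rl1, of the same family, and Socs1, a cytokine signalling inhibitor, were detected on no array. The looser flag was nevertheless set for Sigirr and Socs1 on all 4 arrays. The median SD was between 0.064 and 0.096 in the 5 lists with several detected genes, beside 0.0926 over all detected genes.

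**Figure D5:**
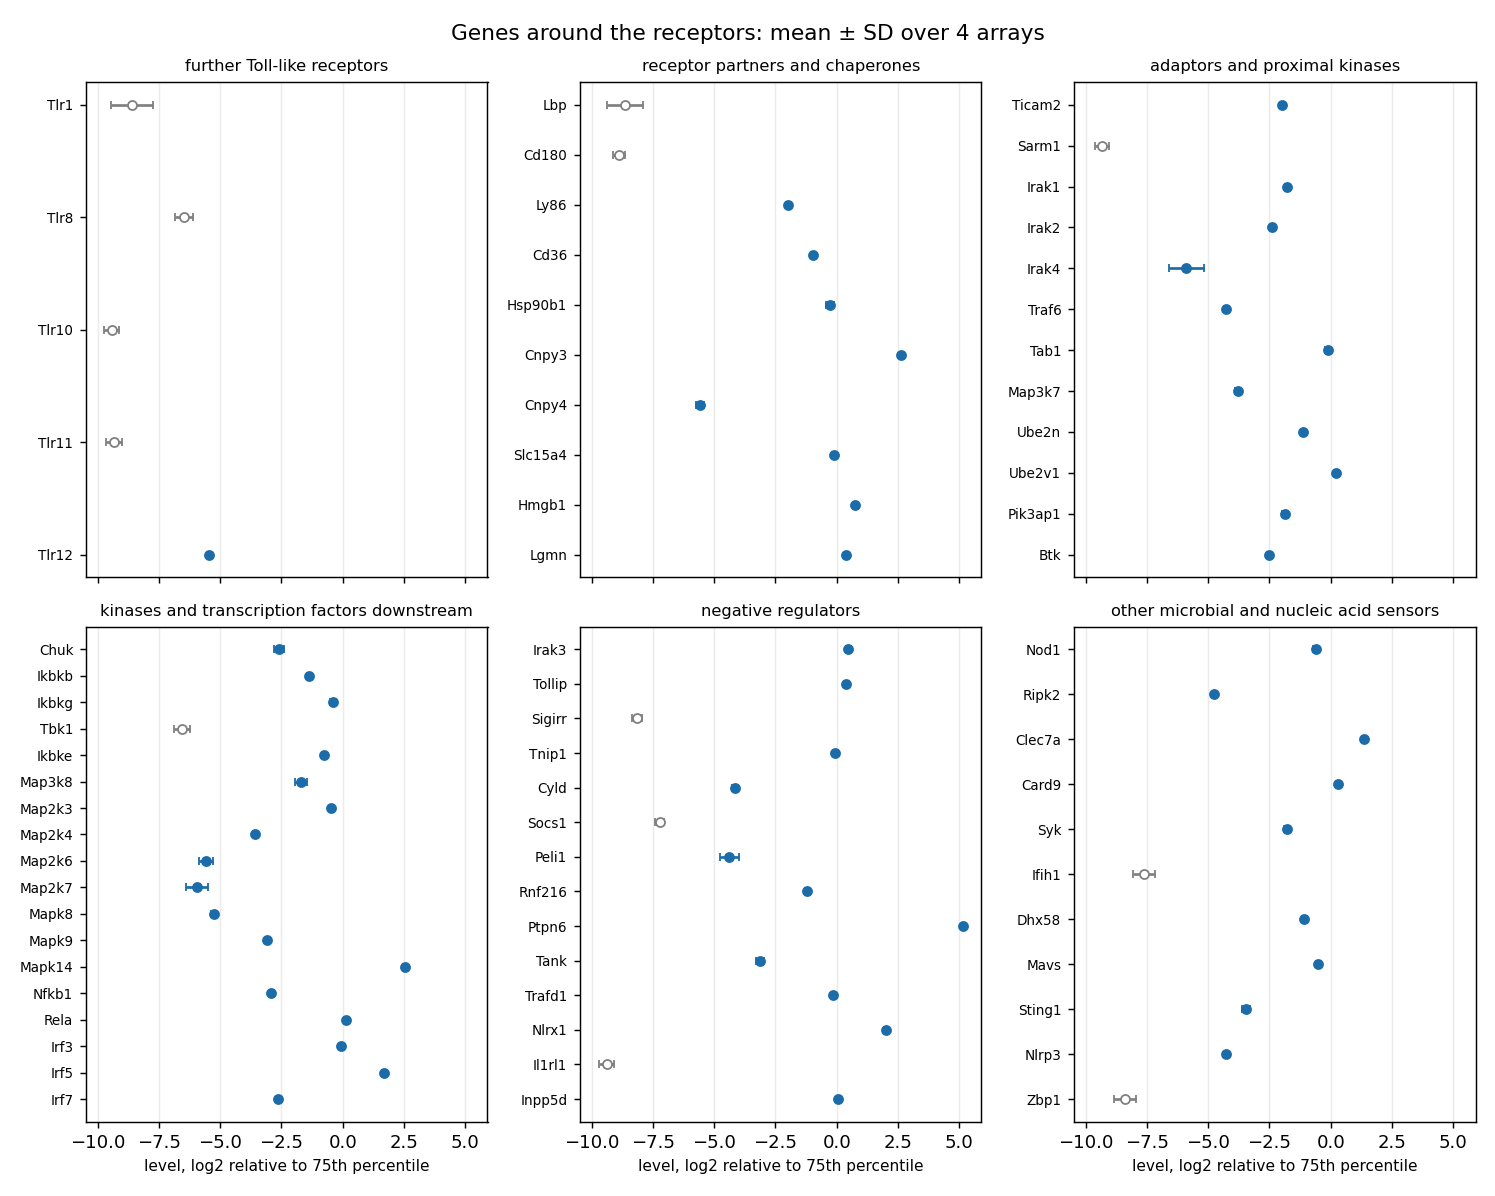
Mean level ± SD over the 4 arrays (x axis, log2 relative to the 75th percentile of each array) for the measured genes of the 6 related lists. Filled symbols were well above background on all arrays and open symbols were not; Irak4 had the widest error bar of the filled symbols, with an SD of 0.72.

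Probes of 8 related genes were printed several times per array and could be tested for differences between arrays. By the moderated F test of limma, adjusted by Benjamini-Hochberg over all 1742 such probes, 3 of the 8 differed, those of Cd36, Hsp90b1 and Mapk14, against 43.3% of all probes tested. The largest difference between arrays was 0.13 for Cd36 (limma adjusted p = 0.00541), 0.37 for Hsp90b1 (limma adjusted p = 0.0458) and 0.13 for Mapk14 (limma adjusted p = 0.0248). The share was near that of all probes. With 1 array per culture, culture and array cannot be told apart.

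Markers of other cell types that carry Toll-like receptors were mostly not detected. Of 40 measured markers of neutrophils, B cells, T cells, dendritic cells, lung epithelium, endothelium, fibroblasts and mast cells, 7 (17.5%) were well above background on all arrays, against 52.4% of all named genes. The B cell markers Cd79b and Blk were detected on no array, and Pax5 was at -2.91 ± 0.35. Of the neutrophil markers, S100a9, Elane, Cxcr2 and Csf3r were not well above background, while S100a8 was at -4.90 ± 0.12 and Camp at 0.45 ± 0.04. The T cell markers Cd3d and Lck were at -4.94 ± 0.27 and -4.10 ± 0.04. The endothelial markers Cdh5 and Vwf were at -5.49 ± 0.24 and -1.32 ± 0.12, the 2 Vwf probes 6.40 apart. The summed linear level of the 8 marker lists was 5.05 to 5.97 across arrays, and that of the endothelial list alone 3.36 to 4.22. The macrophage and alveolar macrophage markers together summed to 142.9 to 169.6. Such sums add probes of unlike affinity, so they do not measure amounts of cells. The part of other cell types in the levels of the receptors was not tested.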

How the data were processed

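Total RNA of 4 exposed cultures was read on 1-colour Agilent arrays, 1 array per culture. The authors deposited Agilent Feature Extraction files (version 11.0.1.1, per the submitters' processing notes). Per the file headers, the deposited processed signal is an intensity from which background had been subtracted and spatial trends removed on each array, with no normalization between arrays. The deposited flags are other values of 0 or 1.

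Control spots and outlier spots (427 to 714 per array) were left out. Log2 signals were set relative to the 75th percentile of each array, taken over probes detected throughout. Detection needed the well-above-background flag on over 50% of a probe's usable spots. Gene levels average the probes detected throughout. Probes were named through RefSeq accessions of GRCr8, whereas the array was annotated on rn4, so no probe coordinates are given. Between 18585 and 19931 of 45598 probes were detected per array, and signal over background sets the precision.

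The members, lists and tests were chosen with earlier results of these data known, and promoter motifs and windows after the values were seen. All members and any gene of the related lists could be named. For probes printed several times, limma 3.58.1 (R 4.3.3) was used, with Benjamini-Hochberg adjustment and a threshold of 0.05. On simulated data for that test with 1742 probes, 50 probes were changed at each of 4 sizes. The test found 40% of those changed by 0.1 (log2), 74% at 0.25, 90% at 0.5 and 98% at 1. It called 11 of 1542 probes that had been left alone. The simulated spots had independent noise and no other differences between arrays, so these rates need not hold for the real arrays. No test between groups was possible. Alternatives changed the background correction, scaling, detection flag, dim-probe filter, number of arrays, probe choice, outlier spots and replicates. Figures were drawn with matplotlib 3.10.9.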

Additional observations from a re-analysis of the deposited data

Results flagged for a closer look

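In 7 of 63 detected member and related genes, 1 array stood apart by more than the 95% critical value of Dixon's gap ratio. Chance under the assumptions of that ratio gives about 3.15. The share of all detected genes that pass was not computed, so the 7 cannot be called an excess in these genes. One of the 6 detected members was among the 7. Tlr4 was at -3.58 on replicate 2, against -3.36 to -3.35 on the others. It deviated there by -0.165 from its own mean, and 9.04% of all detected genes lay as far or farther below. The other arrays lay closer together than the median error estimate of the member probes, 0.14 on the log2 scale. The gap of Tlr4 passed the critical value in 8 of 10 processing settings, and not with normexp correction (ratio 0.608) or quantile normalization (ratio 0.823). The 10 count the main setting itself. The dim-probe filter, detection on at least 3 arrays and the probe choice could not change the values of Tlr4, which has 1 probe. Among the related genes, the MyD88 kinase gene Irak4 was higher on replicate 4, at -4.81 against -6.38 to -6.14, by 1 dim probe. Nlrx1 (1.90 against 2.04 to 2.06) and Nod1 (-0.76 against -0.58 to -0.55) were lower on replicate 4. Map3k7 (-3.97 against -3.74 to -3.72) and Clec7a (1.26 against 1.40 to 1.41) were lower on replicate 1, and Nlrp3 was higher there (-4.17 against -4.29 to -4.28).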

How the results depend on the processing

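The number of detected members was 6 under the main setting, 8 with the looser flag, which added Tlr7 and Tlr9, and 7 with detection on at least 3 arrays or without replicate 4, which added Tlr9. Scaling to the 75th percentile of all probes shifted the median level over all detected genes by 3.61, to the median of detected probes by 2.43 and with the looser flag by 0.78, so levels are relative to the scaling. With normexp correction that median shift was 0.20, and the members moved unequally: Tlr2 was at 0.09 and Myd88 at 2.70, lower than in the main setting, while Tlr4 was at -3.18, Cd14 at -2.81, Ly96 at -2.18 and Tlr6 at -1.84, higher. Over the 6 detected members, 5 of 78 alternative SDs moved by over 1.5 times. The highest of these SDs was 0.252, that of Tlr4 with normexp correction. There replicate 2 of Tlr4 was at -3.53, against -3.19 to -2.97, and the cause was not tested. With the brightest probe, Tlr6 was at -0.42. Without replicate 2 the SD of Tlr4 was 0.002, and without replicate 4 that of Cd14 was 0.035, that of Ly96 0.072 and that of Tlr2 0.056. The median SD of all genes was 0.244 with no filter on dim probes. Of the probes printed several times, 755 of 1742 differed between arrays, 219 with normexp correction and 526 to 692 without 1 replicate. No paired analysis was possible because the samples form 1 group.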

Other observations

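Other sensors of microbes and nucleic acids were detected for 9 of 11 measured genes on all arrays, against 52.4% of all named genes. Clec7a, which encodes the beta-glucan receptor dectin-1, was at 1.37 ± 0.07, its 2 probes 1.80 apart. The genes Syk and Card9, through which dectin-1 signals, were at -1.80 ± 0.10 and 0.30 ± 0.10, the 2 Syk probes 2.94 apart. In the cytosolic RNA sensing pathway, the adaptor gene Mavs was at -0.52 ± 0.07 and the regulator gene Dhx58 at -1.08 ± 0.10, while the sensor gene Ifih1 was not well above background on any array, although the looser flag was set on all 4. Sting1, the adaptor for cytosolic DNA sensing, was at -3.46 ± 0.15 by the only 1 of its 2 probes that was detected on all arrays. Zbp1 was not well above background. Nod1, the sensor of bacterial cell wall peptides, was at -0.61 ± 0.10 with its 2 probes 6.61 apart, and its kinase gene Ripk2 was at -4.74 ± 0.07.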
